A study of Mus musculus with 5 samples.

Results

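The 46 genes described here act in the G2 and M phases of the cell cycle, when a cell with copied DNA prepares for and carries out division. They were taken as a given list of symbols, and all 46 were found among the 36529 gene rows of the deposited tables. By what they are known to do, they comprise 10 kinases, cyclins and kinase subunits, 4 genes of the spindle checkpoint and the anaphase-promoting complex, 3 of the chromosomal passenger complex, 6 of the centromere and kinetochore, 12 of the spindle, 4 of cytokinesis, 6 of chromosome structure and 1 adaptor of mitotic entry. Single-cell libraries (10x Chromium, 3' chemistry) came from pancreatic tumors of mice homozygous for a knockout of Gcgr, the glucagon receptor gene (3 libraries, called A, B and C here, with names of 3 animals), from islets of a homozygous Gcgr knockout (1 library) and from islets of a heterozygous one (1 library). No group carried an intact pair of Gcgr alleles, all mice ate standard chow and none was treated; strain, age and the number of animals behind an islet library are not given in the sources used here. The series title asks how loss of Gcgr function leads to neuroendocrine tumors from some of the alpha cells, which make glucagon.

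Entry into mitosis is driven by the kinase Cdk1 with its cyclins A and B, and exit by the anaphase-promoting complex, a ubiquitin ligase that has the cyclins destroyed. In between, the Aurora and Polo-like kinases, the kinetochore and the spindle attach and separate the chromosomes. Most of these genes are transcribed in G2 and M only, from promoters in which a CHR element near the start and CCAAT boxes before it are bound by the DREAM and MuvB complexes with B-Myb and by NF-Y. Adult islet cells rarely divide.

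Promoter windows from RefSeq (GRCm38.p6, 250 bases before to 50 after the start used in the table) were given for 38 of the 46 genes. A CHR (TTTGAA or TTCGAA, either strand) was matched in 29 of the 38 (76.3%), against 21.7% of all 27025 genes with a window. Within 50 bases of the start it was matched in 25 of the 38 (65.8%), against 6.12% of all genes. CCAAT was matched in 30 of 38 (78.9%), against 41.1% of all genes, and more than 1 CCAAT in 24 of 38 (63.2%), against 13.3%. An E2F site (TTTGGCG or TTTCGCG) was matched in 4 of 38 (10.5%), against 2.68%. These are matches of letters and not sites shown to be bound. Below are 110 bases before to 30 after the start of 6 members that were higher in the tumors and are described further on, each 5′ to 3′ on the strand of the gene. They are shown because the same 2 elements recur in them, with CCAAT boxes before the CHR (in Cdc20 and Cdca8 also 1 after it), and capitals mark the CHR (TTTGAA, or TTCAAA on the other strand) and the CCAAT box (CCAAT, or ATTGG on the other strand). In Cdca8 the CHR and the last CCAAT box share 1 base.
Cdc20 (chr4:118437314-118437453, minus strand): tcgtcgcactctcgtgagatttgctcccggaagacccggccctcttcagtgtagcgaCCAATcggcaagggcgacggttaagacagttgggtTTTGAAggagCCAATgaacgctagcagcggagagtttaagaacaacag
Cdca8 (chr4:124936888-124937027, minus strand): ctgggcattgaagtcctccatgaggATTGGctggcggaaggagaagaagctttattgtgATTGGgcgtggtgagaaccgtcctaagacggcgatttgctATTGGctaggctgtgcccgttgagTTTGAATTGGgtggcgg
Ccnb2 (chr9:70421525-70421664, minus strand): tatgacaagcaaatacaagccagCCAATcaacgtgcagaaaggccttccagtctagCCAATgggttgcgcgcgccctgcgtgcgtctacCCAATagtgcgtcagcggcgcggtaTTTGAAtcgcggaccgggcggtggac
Hmmr (chr11:40733408-40733547, minus strand): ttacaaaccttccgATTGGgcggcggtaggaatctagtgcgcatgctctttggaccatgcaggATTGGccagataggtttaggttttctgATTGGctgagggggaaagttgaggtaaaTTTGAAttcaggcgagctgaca
Cenpa (chr5:30666776-30666915, plus strand): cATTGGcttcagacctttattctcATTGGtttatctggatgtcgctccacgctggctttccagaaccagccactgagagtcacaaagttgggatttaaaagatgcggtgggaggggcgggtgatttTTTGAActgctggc
Ube2c (chr2:164769819-164769958, plus strand): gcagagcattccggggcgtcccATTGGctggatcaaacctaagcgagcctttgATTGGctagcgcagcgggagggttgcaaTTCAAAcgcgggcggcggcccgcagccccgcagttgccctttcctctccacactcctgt

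**Figure D1:**
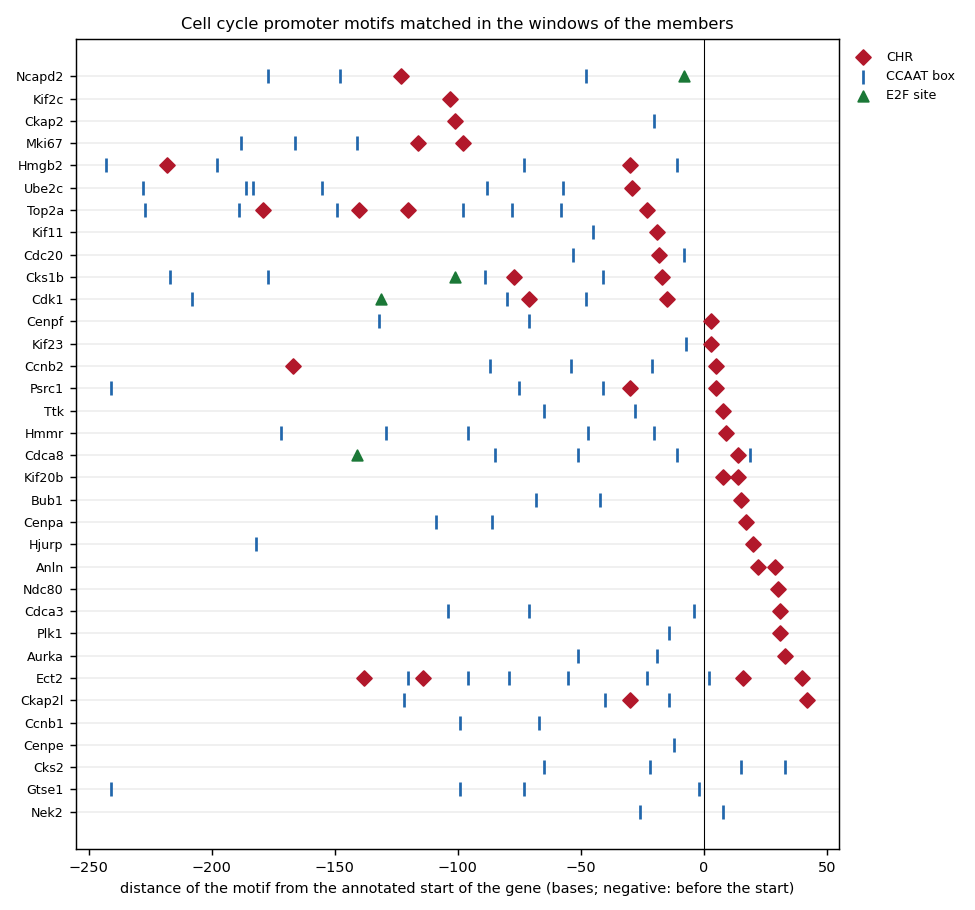
Positions of the CHR (diamonds), the CCAAT box (bars) and the E2F site (triangles) in the promoter windows of the members with a match, as the distance in bases from the start used in the promoter table; 3 members (Psrc1, Ect2 and Gtse1) have 2 windows each, which are drawn together. Of the 38 members with a window, 25 have a CHR within 50 bases of the start, and the CCAAT boxes lie mostly before it.

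The 5 libraries held 513 to 1099 cells per tumor and 2844 and 1334 cells in the homozygous and heterozygous islets, with 10508498 to 34101553 UMIs (unique molecular identifiers, 1 per captured transcript) each, and shared no cell name. After doublets were removed, 495, 846 and 1084 tumor cells, 1525 homozygous and 306 heterozygous alpha cells remained, with median depths of 19867, 26091.5 and 19378.5 UMIs in tumor libraries A, B and C, 14086 in homozygous and 10002.5 in heterozygous alpha cells. Tumor cells fitted the label of alpha cell tumors in their level of Gcg, the glucagon gene, at 383300, 295200 and 320800 CPM (UMIs per 1000000, mean over cells) in tumor libraries A, B and C, against 330600 and 339200 CPM in alpha cells of homozygous and heterozygous islets. Tumor values come from a table of exonic UMIs and islet values from tables of all UMIs, and this difference and the groups cannot be told apart. In pooled levels, fewer cells with a transcript and less of it per cell cannot be told apart, so shares of cells are given as well.

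Tumor cells had more transcripts of nearly all of these genes than islet alpha cells. Levels here are means over the cells of a library. For 44 of the 46 members every tumor library lay above both islet libraries, against 22.5% of all 24555 genes with a UMI, and the 2 exceptions were Hjurp and Psrc1. For 0 members every tumor library lay below both, against 6.92% of all genes. With no filter, the median log2 change over all 46 members was 1.73 relative to the median gene. In the test (limma on log2(CPM + 1), genes with 5 CPM or more in 2 libraries), the median gene was higher in tumors by 0.25. The changes below are relative to it, while their p-values test the change before this subtraction against 0. Of the 46 members 26 passed the filter, 20 of them through the tumor libraries alone, so that a difference was built into their selection and their count is a description. Of these 26, 15 were higher and 0 lower at an adjusted p under 0.05 (24 higher and 0 lower at an unadjusted p under 0.05; edgeR 5 and DESeq2 21 higher, 0 lower), against 2.08% of all 10233 genes higher. The calls depended on scaling and on each library: 2 members, Cenpa and Cdc20, were called after TMM scaling, and 1, 10 and 4 were called without tumor library A, B or C, 1 without the homozygous and 1 without the heterozygous islets. No member had a change below 0 in any of these fits before the median gene was subtracted. Changes of low genes are understated on this scale by the pseudocount.

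**Figure D2:**
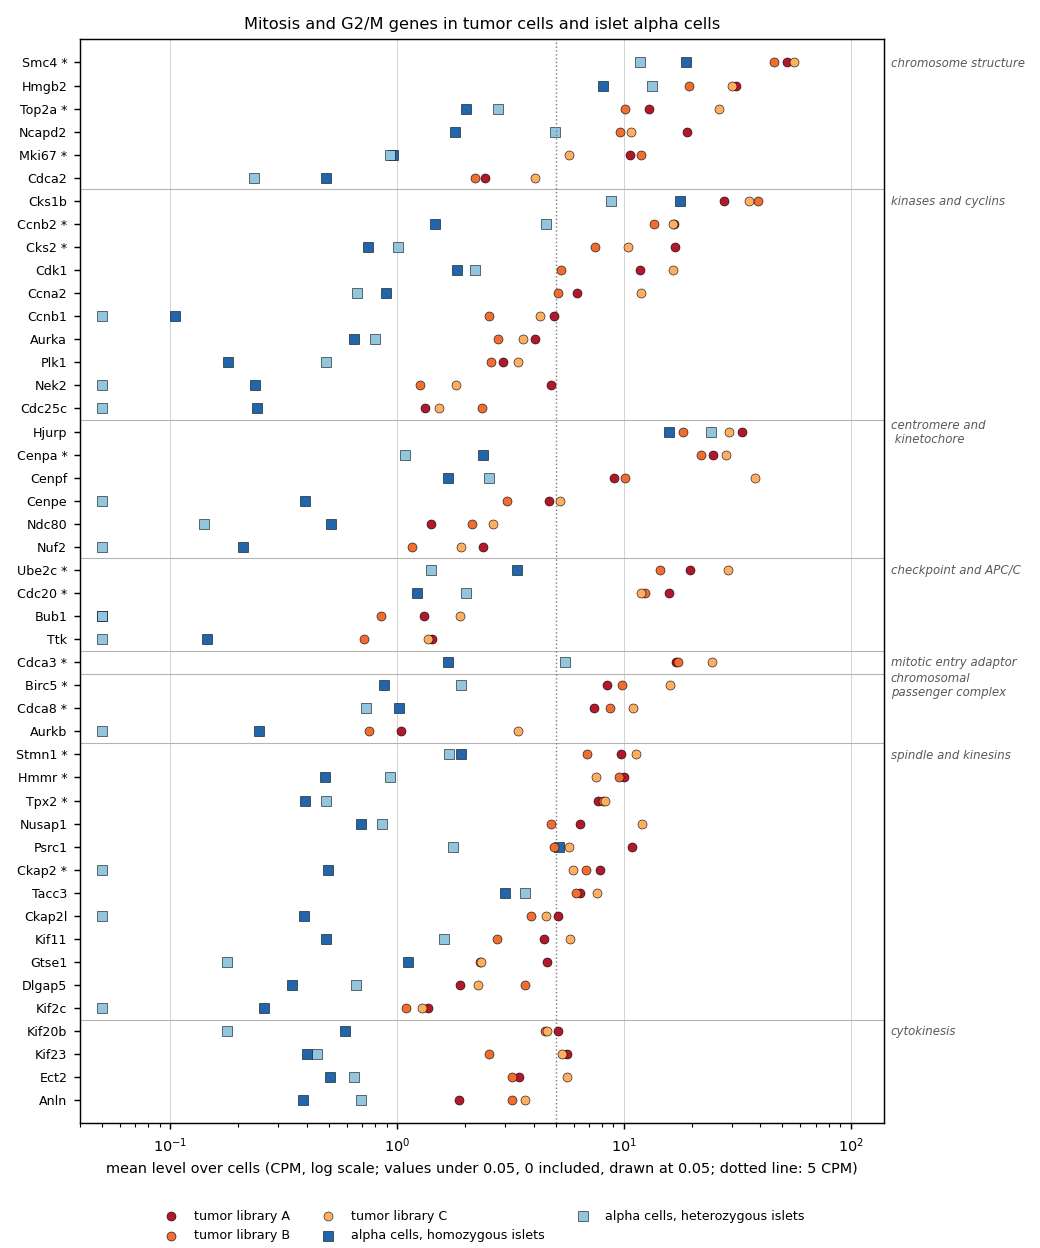
Mean level over cells (CPM, log scale) of the 46 members in each tumor library (circles) and in alpha cells of each islet library (squares), grouped by role; asterisks mark the 15 members with an adjusted p under 0.05. The tumor circles lie to the right of both squares for all but Hjurp and Psrc1, and few squares reach the dotted line at 5 CPM.

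At the centromere, Cenpa (chromosome 5, 30666877 to 30674837 in GRCm38), the histone H3 variant that marks it, stood at 24.8, 21.9 and 28.2 CPM in tumor libraries A, B and C, against 2.40 and 1.08 CPM in alpha cells of homozygous and heterozygous islets. All tumor libraries were high and the groups lay far apart. It rose by 3.03 ± 0.31 (log2, SE; limma, adjusted p = 0.00579) and was the member called in all 5 fits that left out a library. Hjurp, the chaperone that loads Cenpa, did not follow it, with 33.2, 18.2 and 29.0 CPM in tumors A, B and C, against 15.7 and 24.3 CPM in homozygous and heterozygous alpha cells. Its groups overlapped, and its change was 0.14 ± 0.32 (limma, adjusted p = 0.531). Hjurp was also found in every other islet cell type, at 9.50 to 32.9 CPM of pooled UMIs. Cenpf, a large protein of the outer kinetochore, had 9.02, 10.1 and 37.7 CPM in tumors A, B and C, against 1.68 and 2.53 CPM in homozygous and heterozygous alpha cells. Library C stood above the other tumors, and the change of 2.16 ± 0.57 missed the threshold (limma, adjusted p = 0.078). The kinetochore motor Cenpe and the Ndc80 complex subunits Ndc80 and Nuf2 stayed under the filter, at 1.16 to 5.21 CPM in tumors and 0 to 0.514 CPM in alpha cells.

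Both tested genes of the checkpoint and anaphase-promoting complex rose. Ube2c (chromosome 2, 164769929 to 164772902), the E2 enzyme of that complex, stood at 19.6, 14.5 and 28.9 CPM in tumors A, B and C, against 3.37 and 1.41 CPM in homozygous and heterozygous alpha cells. Cdc20 (chromosome 4, 118432901 to 118437343), its activator in anaphase, stood at 15.9, 12.5 and 11.9 CPM in tumors A, B and C, against 1.22 and 2.02 CPM in homozygous and heterozygous alpha cells. Neither gene's groups overlapped. The changes were 2.46 ± 0.39 for Ube2c (limma, adjusted p = 0.0247) and 2.22 ± 0.33 for Cdc20 (adjusted p = 0.0223). Ube2c and Cdc20 overlap Tnnc2 and Elovl1 on the other strand, and no source used here says whether reads were counted by strand. Tnnc2 stood at 0, 0.0917 and 0 CPM in the tumors, against 0.116 and 0 CPM in homozygous and heterozygous alpha cells, and Elovl1 at 15.6, 11.1 and 19.5 CPM, against 15.3 and 6.25 CPM. The checkpoint kinases Bub1 and Ttk were low, at 0.713 to 1.90 CPM in tumors, against 0 to 0.145 CPM in alpha cells. Bub1 had no UMI in alpha cells, which allows up to 0.135 CPM in homozygous and 0.933 CPM in heterozygous ones (3 counts of the library's alpha cells).

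Among kinases and cyclins, Ccnb2 and Cks2 passed the threshold. Ccnb2 (chromosome 9, 70407689 to 70421554), 1 of the B-type cyclins that activate Cdk1, stood at 16.7, 13.6 and 16.4 CPM in tumors A, B and C, against 1.47 and 4.54 CPM in homozygous and heterozygous alpha cells, and rose by 1.91 ± 0.38 (limma, adjusted p = 0.0354). Cks2 (chromosome 13, 51645232 to 51650662), a small subunit of the Cdk complexes, stood at 16.9, 7.48 and 10.4 CPM in tumors A, B and C, against 0.747 and 1.01 CPM in homozygous and heterozygous alpha cells, and rose by 2.43 ± 0.43 (adjusted p = 0.0285). In both, every tumor library lay above both islet libraries. Cks1b, the paralog of Cks2, stood at 27.6, 38.9 and 35.8 CPM in tumors A, B and C, against 17.7 and 8.76 CPM in homozygous and heterozygous alpha cells, and its change of 1.12 ± 0.33 missed the threshold (limma, adjusted p = 0.0779). Cdk1 itself had 11.7, 5.28 and 16.4 CPM in tumors A, B and C, against 1.85 and 2.21 CPM in homozygous and heterozygous alpha cells. Its change of 1.64 ± 0.47 and that of cyclin A2 (Ccna2) of 1.98 ± 0.48 missed the threshold too (limma, adjusted p = 0.0822 and 0.063). Ccna2 overlaps Exosc9 on the other strand. The cyclin Ccnb1, the Aurora kinase Aurka, Plk1, the centrosomal kinase Nek2 and the phosphatase Cdc25c, which activates Cdk1, stayed under the filter, at 1.27 to 4.93 CPM in tumors, against 0 to 0.803 CPM in alpha cells.

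In the chromosomal passenger complex, which corrects wrong attachments of chromosomes, both tested subunits rose. Birc5 (survivin; chromosome 11, 117849237 to 117855743) stood at 8.46, 9.85 and 16.1 CPM in tumors A, B and C, against 0.878 and 1.91 CPM in homozygous and heterozygous alpha cells, a change of 2.12 ± 0.41 (limma, adjusted p = 0.0326). Cdca8 (borealin; chromosome 4, 124918465 to 124936917) stood at 7.41, 8.68 and 10.9 CPM in tumors A, B and C, against 1.03 and 0.732 CPM in homozygous and heterozygous alpha cells, a change of 2.16 ± 0.39 (adjusted p = 0.0307). The groups of both genes lay apart. Cdca8 overlaps 9930104L06Rik on the other strand, which stood at 5.81, 5.26 and 6.61 CPM in tumors A, B and C, against 3.57 and 6.59 CPM in homozygous and heterozygous alpha cells. Aurkb, the kinase of the complex, was found at 1.05, 0.749 and 3.42 CPM in tumors A, B and C, against 0.246 and 0 CPM in homozygous and heterozygous alpha cells, and was too low to be tested. Cdca3, an adaptor that has the Cdk1 inhibitor Wee1 degraded, stood at 17.0, 17.4 and 24.5 CPM in tumors A, B and C, against 1.67 and 5.49 CPM in homozygous and heterozygous alpha cells. It (chromosome 6, 124829530 to 124833701) rose by 2.04 ± 0.40 (limma, adjusted p = 0.0347).

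Of 12 spindle genes 7 were tested and 4 rose. Hmmr (chromosome 11, 40701388 to 40733464) and Tpx2 (chromosome 2, 152847964 to 152895321), which work together in spindle assembly and on Aurora A, were even across the tumors. Tpx2 stood at 7.66, 8.09 and 8.23 CPM in tumors A, B and C, against 0.393 and 0.488 CPM in homozygous and heterozygous alpha cells, and Hmmr at 10.1, 9.56 and 7.54 CPM, against 0.481 and 0.931 CPM. They rose by 2.40 ± 0.42 and 2.32 ± 0.40 (limma, adjusted p = 0.0285 for both). Ckap2 (chromosome 8, 22168149 to 22185819), a microtubule-associated protein, stood at 7.87, 6.82 and 5.94 CPM in tumors A, B and C, against 0.498 and 0 CPM in homozygous and heterozygous alpha cells, with a change of 2.43 ± 0.49 (limma, adjusted p = 0.0384). Stmn1 (chromosome 4, 134468320 to 134473843), which destabilizes microtubules, stood at 9.67, 6.85 and 11.3 CPM in tumors A, B and C, against 1.91 and 1.70 CPM in homozygous and heterozygous alpha cells, with a change of 1.60 ± 0.37 (adjusted p = 0.0467). None of the 4 had overlapping groups. Nusap1 (1.97 ± 0.49), Tacc3 (0.58 ± 0.34) and Psrc1 (0.67 ± 0.49) missed the threshold (limma, adjusted p = 0.0672, 0.215 and 0.321). Psrc1, a target of p53 that binds microtubules, overlapped between groups at 10.8, 4.94 and 5.73 CPM in tumors A, B and C, against 5.17 and 1.76 CPM in homozygous and heterozygous alpha cells. Ckap2l, Gtse1, Dlgap5 and the kinesins Kif11 and Kif2c stayed under the filter, at 1.10 to 5.79 CPM in tumors and 0 to 1.61 CPM in alpha cells.

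Of the cytokinesis genes, Kif20b, a kinesin of the midzone, had 5.13, 4.48 and 4.56 CPM in tumors A, B and C, against 0.589 and 0.178 CPM in homozygous and heterozygous alpha cells. Its groups lay apart, but it reached 5 CPM in 1 library only and was not tested. Kif23, a motor of the central spindle, was tested and missed the threshold (1.65 ± 0.58; limma, adjusted p = 0.123). Ect2, which activates RhoA at the division plane, and anillin (Anln) stood at 1.87 to 5.59 CPM in tumors, against 0.386 to 0.693 CPM in alpha cells.

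Among genes of chromosome structure, Smc4 (chromosome 3, 69004738 to 69034623), a core subunit of condensin, was the one called member whose alpha cells of both islet libraries were above the filter. It stood at 52.6, 45.9 and 56.1 CPM in tumors A, B and C, against 18.9 and 11.8 CPM in homozygous and heterozygous alpha cells, and rose by 1.47 ± 0.27 (limma, adjusted p = 0.0285). Top2a (chromosome 11, 98992947 to 99024199), the topoisomerase that untangles sister chromatids, had 12.9, 10.1 and 26.1 CPM in tumors A, B and C, against 2.02 and 2.79 CPM in homozygous and heterozygous alpha cells. Mki67 (chromosome 7, 135689784 to 135716450), the proliferation marker that coats mitotic chromosomes, had 10.7, 12.0 and 5.71 CPM in tumors A, B and C, against 0.961 and 0.931 CPM in homozygous and heterozygous alpha cells. Library C was the highest for Top2a and the lowest for Mki67, and in both genes every tumor lay above both islet libraries. The changes were 2.00 ± 0.42 for Top2a and 2.12 ± 0.43 for Mki67 (limma, adjusted p = 0.0384 for both). Hmgb2 and the condensin subunit Ncapd2 missed the threshold at 1.01 ± 0.31 and 1.49 ± 0.43 (limma, adjusted p = 0.0835 and 0.0834), and Cdca2 was under the filter.

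Markers of other cell types and the mitochondrial share differed between the groups too. Endothelial cells, a type with higher levels of the members, had markers (6 of 6 detected) at 2.70 to 40.3 CPM in tumor libraries, against 19.6 and 42.0 CPM in homozygous and heterozygous alpha cells. The 6 macrophage markers found summed to 44.1 to 268 CPM in tumors, against 73.1 and 188.1 CPM in homozygous and heterozygous alpha cells, and the 6 stellate markers to 1.37 to 28.7 CPM, against 16.7 and 28.9 CPM, with Col3a1, Pdgfrb and Dcn at 0 in tumor B. In tumor library B these non-endocrine lists lay below both islet groups, and in C the macrophage list lay above both. Markers of T and B cells (4 found) summed to 1.02 to 7.26 CPM in tumors, against 0.0903 and 1.87 CPM in homozygous and heterozygous alpha cells. Beta markers (7) summed to 7.24 to 3333 CPM in tumors, against 11500 and 55550 CPM, delta markers (3) to 1045 to 1810 CPM, against 4569 and 1989 CPM, and Ppy to 275.5 to 2349 CPM, against 76620 and 16010 CPM. Acinar markers (4) were at 2.57 to 130.4 CPM in tumors, against 117.6 and 2.18 CPM, and ductal markers (3) at 35.6 to 409.2 CPM, against 647.1 and 50.1 CPM. The median mitochondrial share of a cell's UMIs was 1.18% to 2.00% in tumors, against 0.583% and 0.586% in homozygous and heterozygous alpha cells. The part of these differences in the results was not tested.

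The higher levels came with a larger number of cells that carried many members at once. For this, 38 members were classed as restricted to dividing cells. A cell was counted as a cell with member UMIs if, after thinning to 5000 UMIs, it had UMIs of 3 or more of them. The other 8 (Stmn1, Hmgb2, Cks1b, Cks2, Smc4, Ncapd2, Psrc1, Tacc3) were classed as broadly expressed and were left out of this count. Such cells were 6.89% of tumor library A (33 of 479 cells, exact 95% interval 4.79 to 9.54), 6.18% of B (52 of 842, 4.65 to 8.02) and 6.74% of C (72 of 1068, 5.31 to 8.41), a mean of 6.60% ± 0.377 (SD, n = 3). Among alpha cells they were 0.561% in homozygous islets (8 of 1427, 0.242 to 1.10) and 0.772% in heterozygous islets (2 of 259, 0.0937 to 2.76). The intervals of all 3 tumor libraries lay above those of both islet libraries; these intervals cover counting error only, and with 1 library per islet genotype there is no test. Beta cells, taken as background, had 0 of 424 in homozygous and 0 of 680 in heterozygous islets, with exact 95% intervals up to 0.866% and 0.541%. Thinning left out 16, 4 and 16 tumor cells of A, B and C, and 98 and 47 homozygous and heterozygous alpha cells. Unthinned, the shares were 16.8%, 12.8% and 17.8% in tumors A, B and C, against 0.984% and 0.654% in homozygous and heterozygous alpha cells. Tumor cells were deeper than alpha cells, at medians of 19378.5 to 26091.5 UMIs, against 14086 and 10002.5, so these unthinned shares are not at like depth. Unthinned beta cells stood at 0% in homozygous islets and 1.02% in heterozygous ones, at median depths of 10854 and 26444 UMIs. Heterozygous alpha cells had a median of 10002.5 UMIs, so the unthinned alpha and beta shares of these islets are not at like depth. The 2 heterozygous alpha cells with member UMIs had 11 and 13 division-restricted members after thinning.

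**Figure D3:**
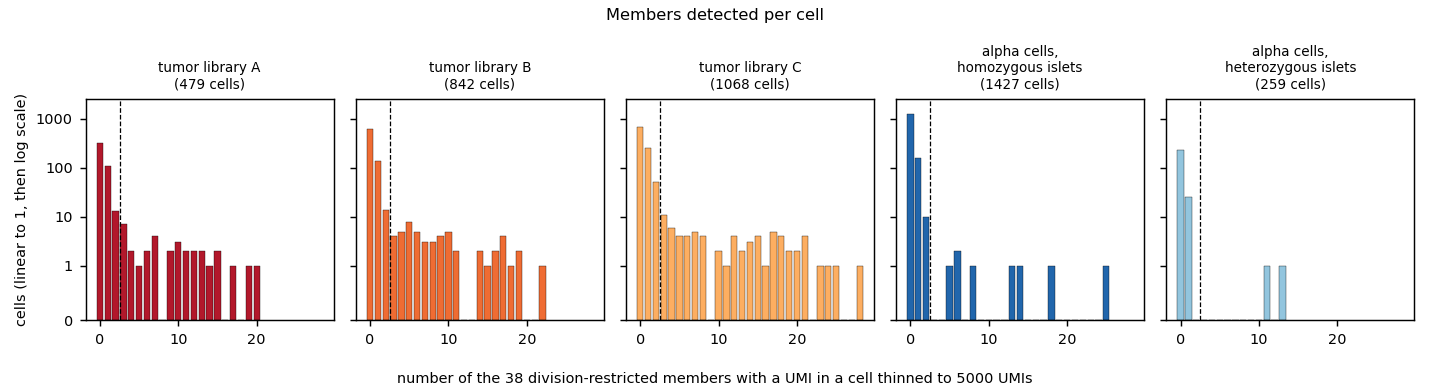
Number of cells (linear to 1, then log scale) by the number of the 38 division-restricted members with a UMI, in cells thinned to 5000 UMIs, for the 3 tumor libraries and the alpha cells of both islet libraries; the dashed line is the limit of 3 members. Most cells have 0 or 1 member, and a long tail beyond the line is filled in the tumors and nearly empty in the islets.

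The number of members per cell had a long tail. In tumors A, B and C, 15, 20 and 38 cells had 10 or more division-restricted members, against 4 homozygous and 2 heterozygous alpha cells. Near the limit, 13, 14 and 52 tumor cells of A, B and C had exactly 2 members and 7, 4 and 11 had 3, while 10 homozygous and 0 heterozygous alpha cells had 2 and none had 3. The richest cells held UMIs of 26, 27 and 33 of the 46 members at 5000 UMIs in A, B and C, against 29 in homozygous and 17 in heterozygous alpha cells. Once a cell was in the tail, its level was of the same order in tumors and islets. Summed over the 46 members it was 3691, 3908 and 5258 CPM in such cells of tumors A, B and C, against 4700 CPM in the 8 homozygous and 5400 CPM in the 2 heterozygous alpha cells. The remaining cells had 164, 126 and 173 CPM in A, B and C, against 75.4 and 56.8 CPM in homozygous and heterozygous alpha cells. The limit of 3 members sets part of these levels, so they are given with no test. Median depths before thinning were 21832, 25228.5 and 20318 UMIs in such cells of tumors A, B and C, against 20095, 26229.5 and 19434 in the remaining cells. Their median mitochondrial share was higher in each tumor, at 1.47%, 1.22% and 2.37% in A, B and C, against 1.24%, 1.18% and 1.99% in the remaining cells, and its part in the comparisons of these cells was not tested. Of 18, 9 and 15 doublets that were removed from A, B and C, 3, 0 and 4 had 3 or more members unthinned and none had 10 or more.

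Cells with member UMIs were 157 of 2389 tumor cells (with 5000 UMIs or more), and they held 62.5%, 67.2% and 68.7% of all member UMIs of tumors A, B and C. The same cells held 26.0% of member UMIs in homozygous and 42.5% in heterozygous alpha cells, where 2 cells thus set much of the level. The most widely detected members in the 157 cells were Cdca3 (66.9% of cells, against 1.08% of the remaining tumor cells), Cenpa (64.3%, against 1.57%), the broadly expressed Smc4 (59.9%, against 15.4%) and Ccnb2 (54.1%, against 1.08%). The share of a member's UMIs found in these cells ranged from 30.1% to 96.8% over the 38 division-restricted members (median 88.2%) and from 30.3% to 81.1% over the 8 broad ones (median 45.8%). At the top were anillin (96.8%), Aurkb (95.5%) and Nusap1 (94.5%), and at the bottom Hjurp (30.1%), Psrc1 (30.3%) and Smc4 (32.3%). Hjurp was in this respect like the broadly expressed members and unlike the group it had been placed in, and without it the tumor share of cells was 6.07%. Stmn1 and Cks2, classed as broadly expressed, went the other way, with 81.1% and 78.1%. Cks2 was found in 0.852% and 0.654% of homozygous and heterozygous alpha cells. These shares describe the cells that the members themselves chose.

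**Figure D4:**
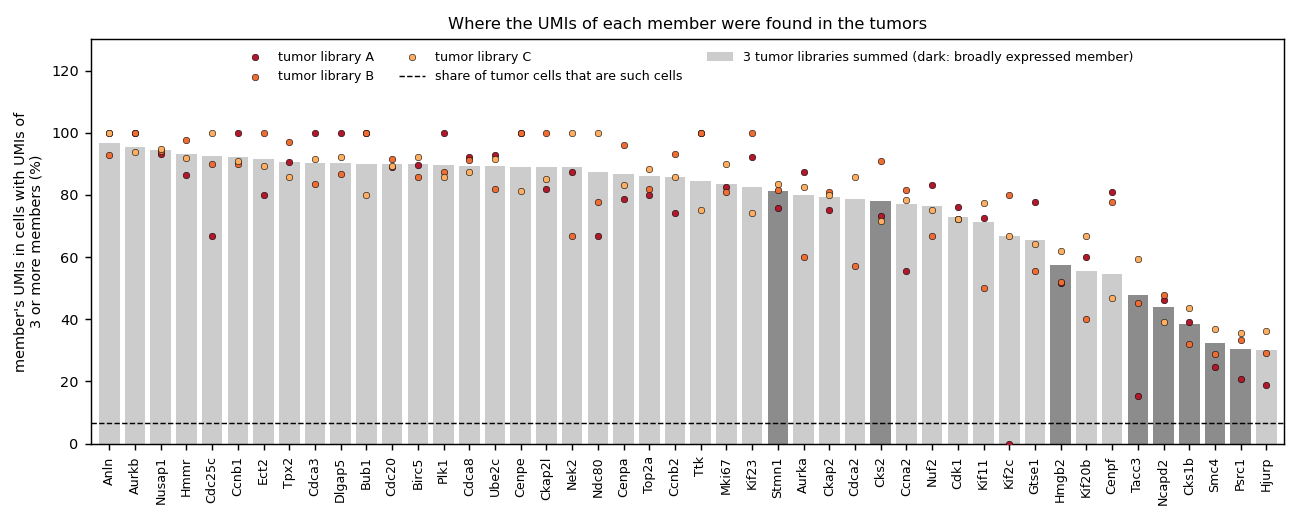
Percent of each member's UMIs (cells thinned to 5000) that lay in the cells with UMIs of 3 or more division-restricted members, for the 3 tumor libraries summed (bars; dark bars are the broadly expressed members) and for each library (points); the dashed line is the share of tumor cells that are such cells. Bars run from 96.8% for Anln to 30.1% for Hjurp, and the Cenpf point of library C lies below those of A and B.

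Cenpf left this pattern in 1 place. In the authors' graph-based cluster 4 of tumor library C, 43 of 372 cells outside the cells with member UMIs had a Cenpf UMI (11.6%, 8.49 to 15.3), or 48.4 CPM. Outside such cells, Cenpf was found in 1.12% (0.452 to 2.30) of cluster 2 of the same library, in 0.899% (0.245 to 2.29) of the main cluster of A and in 0.887% (0.357 to 1.82) of that of B. The cells of cluster 4 with Cenpf held up to 7 of its UMIs at 5000. Of the other members only Cenpa, Top2a and Cenpe were looked at in these cells, and they did not follow it. Cenpa was found in 2.42% (1.11 to 4.54), Top2a in 1.34% (0.438 to 3.11) and Cenpe in 0.269% (0.00681 to 1.49) of the same 372 cells. The pattern was seen after the values were, and the clusters rest on the expression of the same cells, so it has no test.

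By cluster, the members were uneven within tumor library C, whose cells the authors split into cluster 2 (mostly classed as Tumor 1) and cluster 4 (mostly Tumor 2). Cells with member UMIs were 9.17% of cluster 2 (63 of 687, 7.12 to 11.6) and 2.36% of cluster 4 (9 of 381, 1.09 to 4.44). Summed over members the level was 729 CPM in cluster 2 (715 to 744, exact Poisson interval), against 211 CPM in cluster 4 (201 to 221). Of the 46 members 45 were higher in cluster 2, and 1, Cenpf, was higher in cluster 4 (30.6 CPM in cluster 2, against 49.9 CPM in cluster 4). The same count was not made over all genes, so whether it is particular to the members was not tested. Tpx2 stood at 12.7 CPM in cluster 2 and 0.729 CPM in cluster 4, Cdc20 at 17.4 and 1.46 CPM, and Smc4 at 70.4 and 33.2 CPM. Cluster 4 stayed above both islet alpha groups in its summed level, and its share of cells with member UMIs had an interval that overlapped theirs. Tumors A and B each lay almost wholly in 1 cluster, with 396.5 CPM in cluster 3 of A and 370.1 CPM in cluster 1 of B. Since the clusters were made from these cells, the differences between clusters are descriptions.

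**Figure D5:**
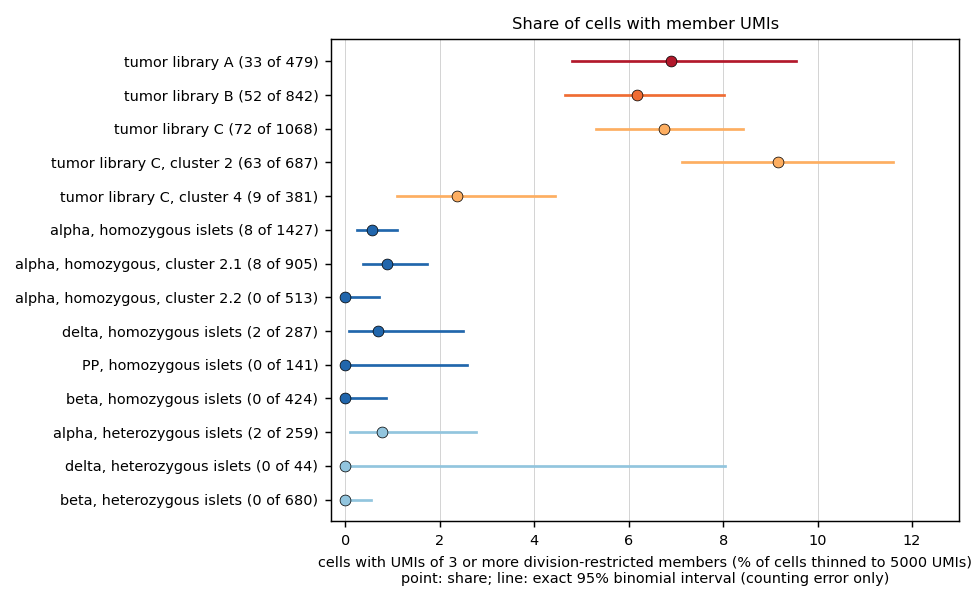
Share of cells (percent, cells thinned to 5000 UMIs) with UMIs of 3 or more division-restricted members by tumor library, islet cell type and cluster, with exact 95% binomial intervals as lines. The 3 tumor libraries sit between 6.18% and 6.89%, cluster 4 of library C at 2.36%, and alpha cells at 0.561% and 0.772%.

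In homozygous islets, all 8 alpha cells with member UMIs were in cluster 2.1 (8 of 905, 0.884%, 0.382 to 1.73), and none of 513 in cluster 2.2, which allows up to 0.585%. Unthinned, 15 alpha cells had 3 or more members, 1.58% of cluster 2.1 and 0% of cluster 2.2. The summed level was 122 CPM in cluster 2.1 (116 to 128), against 61.9 CPM in cluster 2.2 (56.5 to 67.6). Without those 15 cells cluster 2.1 stood at 76.9 CPM (72.4 to 81.7). Of the 46 members 42 were higher in cluster 2.1, and for 11 of them the Poisson intervals lay apart. These counts include the 15 cells, whose UMIs are not independent, and were not made over all genes. Whether they are particular to the members was not tested. Top2a had 3.10 CPM in cluster 2.1 and no UMI in cluster 2.2, Ube2c 6.05 and 0.128 CPM, and Cdk1 3.24 CPM and no UMI. Among the broad members, Cks2 had 0.985 and 0.128 CPM, Stmn1 2.60 and 1.02 CPM, Cks1b 18.1 and 15.5 CPM, Smc4 20.6 and 15.5 CPM and Tacc3 2.53 and 2.81 CPM in clusters 2.1 and 2.2.

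Between the islet genotypes, the summed level of the members in alpha cells did not differ beyond counting error, at 100.5 CPM in homozygous (2228 UMIs) and 91.7 CPM in heterozygous islets (295 UMIs), a ratio of 1.10 (exact interval 0.970 to 1.24). With 8 hormone transcripts left out of the totals the levels were 231 CPM (222 to 241) and 177 CPM (157 to 198), and the intervals lay apart. The division-restricted members had a ratio of 0.973 (0.820 to 1.16) and the broad ones 1.23 (1.03 to 1.47). Counted over the members only, with no count over all genes beside it, the interval lay above 1 for 4 members and below 1 for 4. Those above were Psrc1 (4.26, 1.41 to 21.0), Ube2c (3.16, 1.19 to 11.8), Cks1b (2.06, 1.39 to 3.16) and Smc4 (1.72, 1.21 to 2.50). Those below were Ncapd2 (0.336, 0.182 to 0.646), Ccnb2 (0.435, 0.215 to 0.955), Cdca3 (0.446, 0.239 to 0.882) and Hmgb2 (0.533, 0.383 to 0.756). Several of these ratios rested on a few cells rich in members, whose UMIs are not independent. Without the 15 homozygous and 2 heterozygous alpha cells that had 3 or more division-restricted members unthinned, Ube2c turned to 0.877 (0.195 to 8.07), and the intervals of Ccnb2 (0.0784 to 4.44) and Cdca3 (0.133 to 1.87) and of the broad members together (0.990 to 1.44) included 1, while those of the other 5 still lay on their side of it. Each genotype had 1 library, so the intervals cover counting error and not differences between animals.

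Other islet cells carried the members too. Summed levels were 311 CPM in endothelial cells of homozygous (267 to 360) and 169 CPM in those of heterozygous islets (142 to 199). A single endothelial cell of homozygous islets held 102 of their 176 member UMIs, and without it their level was 132 CPM (104 to 166). Stellate cells had 179 CPM (124 to 250) and 133 CPM (68.9 to 233) in homozygous and heterozygous islets. Macrophages of heterozygous islets had 160 CPM (105 to 232), and a type left unnamed by the authors in homozygous islets 435 CPM (361 to 521), or 324 CPM (260 to 400) without its richest cell. Delta cells had 117 CPM (106 to 129) in homozygous and 49.0 CPM (30.7 to 74.3) in heterozygous islets. Of the 405 member UMIs in the homozygous ones 1 cell held 185, and without it they had 64.1 CPM (56.0 to 73.2). Beta cells had 37.6 CPM (32.7 to 43.0) in homozygous and 39.4 CPM (36.5 to 42.4) in heterozygous islets. The order of the endocrine types depended on their hormones: with 8 hormone transcripts left out of the totals, beta cells had 131 and 138 CPM in homozygous and heterozygous islets, and delta cells 253 and 81.4 CPM. Pancreatic polypeptide cells of homozygous islets had 55.1 CPM (44.9 to 67.0). Cells with member UMIs were 2 of 287 delta cells of homozygous islets (0.697%), with 11 and 21 division-restricted members, and 2 of 17 endothelial cells and 1 of 7 unnamed cells deep enough to be thinned. The non-endocrine types were shallow, at medians of 2061 to 3827.5 UMIs per cell, so that most of their cells were left out of the shares.

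The genes that moved with the members were sought in tumor cells alone. Thinned UMIs of the 157 cells with member UMIs were summed per library and set against those of the other 2232 cells, with the members left out of the table (limma, library as a block). Of 11039 genes, 213 (1.93%) were higher and 10 (0.0906%) lower in cells with member UMIs. Of the 213, 63 are on the 4 gene lists described here and 150 are on none of them. Without library C 26 were higher and 0 lower, and 90 were higher and 0 lower without the block. The filter was 5 CPM in 2 of the sums, and the sums of the cells with member UMIs were the smaller ones. In library B 2 UMIs made 7.69 CPM in these cells, against 0.506 CPM in the other cells. Low genes on or off the lists could thus pass through the cells with member UMIs alone, as many genes of the lists did. The 213 against 10 genes and the counts on the lists are therefore descriptions. Of 63 further mitosis genes, 59 passed the filter, 34 were higher and 0 lower (52 higher and 0 lower at an unadjusted p under 0.05, edgeR 54 and 0). The median log2 change over the 59 was 3.27, against 0.00 over all genes. Pbk, a mitotic kinase, had 13, 26 and 75 UMIs in the cells with member UMIs of A, B and C, against 3, 3 and 7 UMIs in the more numerous other cells (log2 change 5.79 ± 0.44, adjusted p = 7.6e-05). Prc1, which bundles midzone microtubules, Racgap1, the partner of Kif23 in the central spindle, and the kinesin Kif4 rose by 5.25 ± 0.50, 5.21 ± 0.44 and 5.18 ± 0.62. Further genes with large changes were the phosphatase Cdkn3 (5.52 ± 0.46; on none of the lists), the kinetochore genes Knstrn (4.88 ± 0.35), Cenpm (4.27 ± 0.51) and Cenpw (3.82 ± 0.22) and the condensin subunit Smc2 (3.99 ± 0.28), the partner of Smc4. All of these were higher in cells with member UMIs in each of the 3 libraries, which for those named by the size of their change was part of the rule. Of these mitosis genes 5 also passed the threshold in tumor against islet alpha cells (edgeR 0; DESeq2 9 higher and 1 lower): Pbk, Knstrn, Cenpw, Racgap1 and Spc24.

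Genes of DNA replication and the G1/S transition rose in the same cells. Of 45 found, 41 passed the filter, 19 were higher and 0 lower (32 and 0 at an unadjusted p under 0.05, edgeR 33 and 0), with a median log2 change of 2.45. Those named of the list were Rrm2, the ribonucleotide reductase subunit that supplies nucleotides (4.80 ± 0.66; 24.2, 76.9 and 86.1 CPM in cells with member UMIs of A, B and C, against 2.24, 1.01 and 0.201 CPM in other cells), Clspn, which mediates the replication checkpoint (4.29 ± 0.67), and the repair genes Rad51ap1 (3.89 ± 0.77) and Exo1 (3.86 ± 0.68). Some of these rested on few UMIs. Clspn had 3, 7 and 15 UMIs in cells with member UMIs of A, B and C, against 2, 0 and 3 in other cells. Rad51ap1 had 3, 2 and 12, against 0, 1 and 2, and Exo1 had 3, 7 and 6, against 1, 2 and 2. Dbf4, the kinase subunit that fires replication origins and is on none of the lists, rose by 4.22 ± 0.52. Of the 157 cells 90 had UMIs of 3 or more genes of this list. These were 54.5%, 44.2% and 68.1% of the cells with member UMIs of A, B and C, against 12.6%, 4.81% and 10.9% of other cells. Against islet alpha cells, none of 25 tested genes of this list was called by limma (10 higher and 0 lower at an unadjusted p under 0.05, edgeR 0 and DESeq2 3 higher), with a median relative change of 0.38.

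Of the 12 remaining genes of a published G2/M list, all passed the filter and 9 were higher in cells with member UMIs, led by Fam64a (4.91 ± 0.62), Gas2l3 (4.08 ± 0.50), the lamina-associated gene Tmpo (2.09 ± 0.20) and Hn1 (1.98 ± 0.21). None of the 11 tested against islet alpha cells was called (4 higher and 0 lower at an unadjusted p under 0.05, edgeR 0, DESeq2 1 higher). Of 12 genes for the DREAM and MuvB complexes, B-Myb and FoxM1, 11 were tested in cells with member UMIs and 1, the transcription factor gene Foxm1, passed the threshold (3.44 ± 0.71; limma, adjusted p = 0.0325; edgeR 3). Foxm1 rested on 2, 5 and 6 UMIs in cells with member UMIs of A, B and C, against 0, 5 and 3 in other cells. Against islet alpha cells none of 7 tested was called (2 higher at an unadjusted p under 0.05, edgeR 0, DESeq2 0).

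Of the 10 genes that were lower in cells with member UMIs, 8 met the rule for named genes. Ppy, the pancreatic polypeptide hormone, fell by 1.27 on the log2 scale, with 752, 169 and 178 CPM in cells with member UMIs of A, B and C, against 2206, 268 and 539 CPM in other cells. The potassium channel Kcnk3 fell by 1.16, the glycolytic enzyme Aldoa by 0.84, the islet gene Cryba2 by 0.78, the immediate early gene Fosb by 0.75, Smim22 by 0.62, Scg5, which assists the hormone convertase Pcsk2, by 0.51 and the noncoding RNA Meg3 by 0.48 (limma, adjusted p from 0.00335 to 0.0416). Being lower in each of the 3 libraries was part of the rule for naming them and is no further result. None of the 10 passed the threshold without library C. The alpha cell hormone gene Gcg had 321600, 268000 and 259300 CPM in cells with member UMIs of A, B and C, against 377500, 288500 and 317200 CPM in other cells. It was lower in all 3 libraries and missed the threshold (-0.21 ± 0.10; limma, adjusted p = 0.441). Slc38a5, a glutamine transporter of these alpha cells, had 1394, 1773 and 1531 CPM in cells with member UMIs, against 1051, 1757 and 1616 CPM in other cells (0.11 ± 0.11; limma, adjusted p = 0.705).

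The kinase gene Cdk4 and the p53 ligase gene Mdm2 were higher in library C than in A and B. Cdk4 stood at 121, 200.0 and 3678 CPM in cells with member UMIs of A, B and C, against 89.7, 155 and 1712 CPM in other cells, and Mdm2 at 60.6, 53.9 and 2564 CPM, against 45.7, 45.6 and 1583 CPM. Neither passed the threshold between these cells (0.63 ± 0.16 and 0.44 ± 0.16; limma, adjusted p = 0.0807 and 0.246). In library C the high levels lay in cluster 2. There Cdk4 stood at 4165 CPM in cells with member UMIs and 2616 CPM in other cells, and in cluster 4 at 267 and 195 CPM. Mdm2 stood at 2889 and 2417 CPM in cluster 2, and at 289 and 184 CPM in cluster 4.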

How the data were processed

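The deposited values are a normalized signal: per the file headers, a cell's UMIs over its total count, times a constant that the values show to be 9936 for islets and 12219 for tumors. The submitters' processing notes name CASAVA 1.8, bcl2fastq 2.17, GSNAP and the build GRCm38; their roles, and how reads shared with overlapping genes or pseudogenes were assigned, no source used here says. The division was undone to regain whole UMIs (100% of values whole within 0.01); their sum was 1.01, 1.02 and 1.03 times the authors' total in the median heterozygous, homozygous and tumor cell.

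Doublets were removed with Scrublet in scanpy 1.11.5 (expected rate 0.06; 18, 9, 15, 1 and 8 cells of tumors A, B, C, homozygous and heterozygous islets). Cell types and clusters are the authors'. Tested levels average over cells the CPM taken on the authors' total; other levels are summed UMIs per 1000000. The fits used limma 3.58.1 (trended prior variance, pseudocount 1, Benjamini-Hochberg at 0.05) in R 4.3.3; alternatives used edgeR 4.0.16 and DESeq2 1.42.0 on recovered counts. The edgeR count test called 17 genes higher and 1 lower in tumor cells against islet alpha cells. The islet arm mixes genotypes. P-values measure the spread between libraries, and limma shares variance across genes, which weighs heavily with so few. On simulated counts with log2 changes of 1, 2 and 3, the fit of tumors against islets found 44%, 94% and 92% of them. This was at a dispersion of 0.05, with 11 of 174 calls false. At a dispersion of 0.2 it found 0%, 24% and 78%. The fit within tumors found 50%, 98% and 98% at a dispersion of 0.01, and 16%, 80% and 98% at 0.05. Its changes were planted only in genes with 50 CPM or more in at least 1 of the sums. These shares thus do not cover lower genes.

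The members came as a list, and members and gene lists were chosen with earlier results of these data known. Named were the members past the threshold, the highest of each role, up to 4 genes past it per other list, and in tumor cells with member UMIs up to 10 genes in each direction, ranked by change, that moved alike in 3 libraries and reached 50 CPM, and Gcg, Slc38a5, Mdm2 and Cdk4. Gene rows matched RefSeq by identifier in 85.0% of cases and in all 46 members. Tumor libraries in the header could not be matched to the sample labels and are therefore called A, B and C; all are in 1 group. Blocking by library is within a library and needs no pairing across animals. The summed alpha cell marker list is not reported here.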

Additional observations from a re-analysis of the deposited data

How the results depend on the processing

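All 385 changes of the 26 tested members, before the median gene was subtracted, kept their direction under the alternatives. Of them 272 stayed on their side of the threshold, 104 lost it and 9 gained it. The 15 members called in tumors became 2 after TMM scaling, 5 with edgeR, 0 of 46 with no filter on low values (limma, 43 higher and 0 lower at an unadjusted p under 0.05, smallest adjusted p = 0.0558) and 1 to 10 when a library was left out. The 227 genes called became 46 after TMM scaling, 18 with edgeR, 670 with DESeq2, 6 with no filter and 13 to 152 when a library was left out. The 223 genes called in tumor cells with member UMIs became 90 without the replicate block, 419 with a pseudocount of 5, 600 with edgeR, 381 with no filter, 26 to 180 when a tumor library was left out and, chosen after seeing the data, 1458 at full depth. The tumor share of cells with member UMIs of 6.60% was 9.68% with 2 or more members, 5.09% with 5 or more, 9.72% with all 46 members, 15.8% unthinned, 5.46% after thinning to 3000 UMIs, 6.07% without Hjurp (chosen after seeing the data) and 6.46% to 6.82% without a tumor library. The tumor level of 443 CPM was 758 CPM with 8 hormone transcripts left out of the totals, and 398 to 480 CPM without a tumor library. The cause of these differences was not tested. Among alternatives chosen after seeing the data, the alpha cell ratio of homozygous over heterozygous islets for Ube2c of 3.16 reversed to 0.877 without the cells that had 3 or more members. With a filter of 1 CPM on the mean over libraries, 43 members were tested and 21 were higher, against 1.47% of all 13580 genes.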
